A study of Mus musculus with 4 samples.

Results

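The genes described here are 8 antiviral interferon-stimulated genes of the mouse: Ifit1, Ifit2, Ifit3, Isg15, Rsad2, Usp18, Isg20 and Ifi35. They were followed as the probe sets annotated to exactly 1 of these symbols. Each of the 8 genes had 1 such probe set, which makes 8 of the 12488 probe sets and 8 of the 8251 singly named genes on the array. Total RNA of cultured mouse embryonic fibroblasts was hybridised to 4 single-colour Affymetrix U74Av2 arrays, 1 for each group. The groups were Xiap knockout cells given TNF, wild-type cells given TNF, unstimulated Xiap knockout cells and unstimulated wild-type cells. TNF was given at 20 ng/ml for 4 hours to confluent cultures, and all cells grew in the same serum-containing medium. The product of Xiap, X-linked inhibitor of apoptosis, blocks caspases and acts as a ubiquitin ligase. The sources used here do not say how the Xiap allele was made or from how many embryos the cultures came. With 1 array per group there is no spread between replicates for any level, and a fold change between 2 arrays has no test.

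Interferon-stimulated genes are switched on when type I interferon binds the receptor made of IFNAR1 and IFNAR2, which acts through the kinases JAK1 and TYK2. The signal ends at the interferon-stimulated response element (ISRE), a short DNA motif in the promoters of such genes, which IRF9 and other members of the IRF family can bind. In fibroblasts the products are a first line of defence against viruses. Ifit1, Ifit2 and Ifit3 encode tetratricopeptide-repeat proteins that bind each other and, in the case of Ifit1, the capped end of foreign RNA. Isg15 encodes a ubiquitin-like protein that is joined to other proteins, and Usp18 the protease that takes it off and also damps signalling at the interferon receptor. Rsad2 encodes viperin, an enzyme that makes a chain-terminating nucleotide, Isg20 encodes an exonuclease that degrades RNA, and Ifi35 a leucine zipper protein that pairs with the product of Nmi.

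In the RefSeq annotation of mouse build GRCm38.p6, Ifit1, Ifit2 and Ifit3 lie together on chromosome 19. Between Ifit3 and Ifit1 the same table lists the relatives Ifit1bl1, Ifit3b and Ifit1bl2. RNA of these relatives may hybridise to the Ifit1 and Ifit3 probe sets, so the Ifit1 and Ifit3 signals are uncertain in that respect. Isg15 is on chromosome 4, Usp18 on 6, Isg20 on 7, Ifi35 on 11 and Rsad2 on 12.

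Promoter windows of RefSeq (GRCm38.p6), running from 250 bases before to 50 after a transcription start, were listed for 7 of the 8 genes and in 10 windows, with Usp18 not among them. The windows were searched on both strands for the ISRE core GAAANNGAAA. It was found in 4 of the 7 genes, Ifit1, Ifit3, Isg15 and Rsad2, and in 3.44% of all 32851 windows of this length. The 4 windows are shown because these genes had the lowest knockout-to-wild-type ratios under TNF, given below. Capitals mark the ISRE core in either orientation, and each sequence runs from 5′ to 3′ on the strand of its gene.
Ifit1, chr19:34640639-34640938, + strand: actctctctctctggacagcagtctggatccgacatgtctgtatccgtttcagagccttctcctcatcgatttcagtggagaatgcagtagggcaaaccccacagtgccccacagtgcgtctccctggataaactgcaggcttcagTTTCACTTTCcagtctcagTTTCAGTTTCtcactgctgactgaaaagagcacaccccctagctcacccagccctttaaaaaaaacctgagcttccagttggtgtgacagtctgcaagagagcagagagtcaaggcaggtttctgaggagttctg
Ifit3, chr19:34583279-34583578, + strand: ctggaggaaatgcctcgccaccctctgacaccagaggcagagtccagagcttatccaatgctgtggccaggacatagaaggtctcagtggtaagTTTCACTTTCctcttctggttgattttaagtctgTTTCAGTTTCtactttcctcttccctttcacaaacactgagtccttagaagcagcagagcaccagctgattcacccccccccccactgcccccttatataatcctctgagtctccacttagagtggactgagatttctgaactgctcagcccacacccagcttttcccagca
Isg15, chr4:156200769-156201068, - strand: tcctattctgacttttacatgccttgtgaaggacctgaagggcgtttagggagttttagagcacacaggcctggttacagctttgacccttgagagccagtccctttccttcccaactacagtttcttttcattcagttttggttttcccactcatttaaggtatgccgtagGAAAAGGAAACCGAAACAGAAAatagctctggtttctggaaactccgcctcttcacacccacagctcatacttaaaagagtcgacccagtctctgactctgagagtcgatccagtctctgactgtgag
Rsad2, chr12:26456403-26456702, - strand: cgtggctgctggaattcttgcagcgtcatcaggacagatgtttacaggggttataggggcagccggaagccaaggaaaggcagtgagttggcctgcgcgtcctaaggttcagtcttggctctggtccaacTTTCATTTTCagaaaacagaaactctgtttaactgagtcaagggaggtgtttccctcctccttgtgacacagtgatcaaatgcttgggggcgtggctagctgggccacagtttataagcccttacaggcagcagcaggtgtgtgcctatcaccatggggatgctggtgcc

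In Ifit1 the 2 matches began 104 and 85 bases before the start, and in Ifit3 156 and 122 bases before it. Both genes carried the same pair of letters, TTTCACTTTC followed by TTTCAGTTTC. In Isg15, 3 overlapping matches formed 1 stretch of 22 bases that began 78 bases before the start. Rsad2 held a single match, 120 bases before the start. The windows of Ifit2, Isg20 and Ifi35 held no ISRE core, which says only that these letters are not in those windows. The palindrome TTCNNNGAA, the core of the gamma-activated site (GAS), was found in 3 genes (Ifit2, Isg20 and Ifi35) and in 8.3% of all windows. In the first Ifit2 window its match overlapped one to the κB consensus, the motif of NF-κB. That consensus was found in 2 genes, Ifit2 and Isg20, and in 8.46% of all windows. The window of Ifi35 is shown as the contrast, because its signal under TNF was nearly the same in both genotypes; capitals mark the GAS core, which lies just downstream of the start.
Ifi35, chr11:101448162-101448461, + strand: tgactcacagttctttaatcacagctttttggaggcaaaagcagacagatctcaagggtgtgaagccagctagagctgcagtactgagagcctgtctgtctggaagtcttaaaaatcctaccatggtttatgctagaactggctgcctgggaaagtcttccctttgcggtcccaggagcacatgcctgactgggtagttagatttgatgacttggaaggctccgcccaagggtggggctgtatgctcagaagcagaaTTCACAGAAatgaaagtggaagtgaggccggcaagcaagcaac

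**Figure D1:**
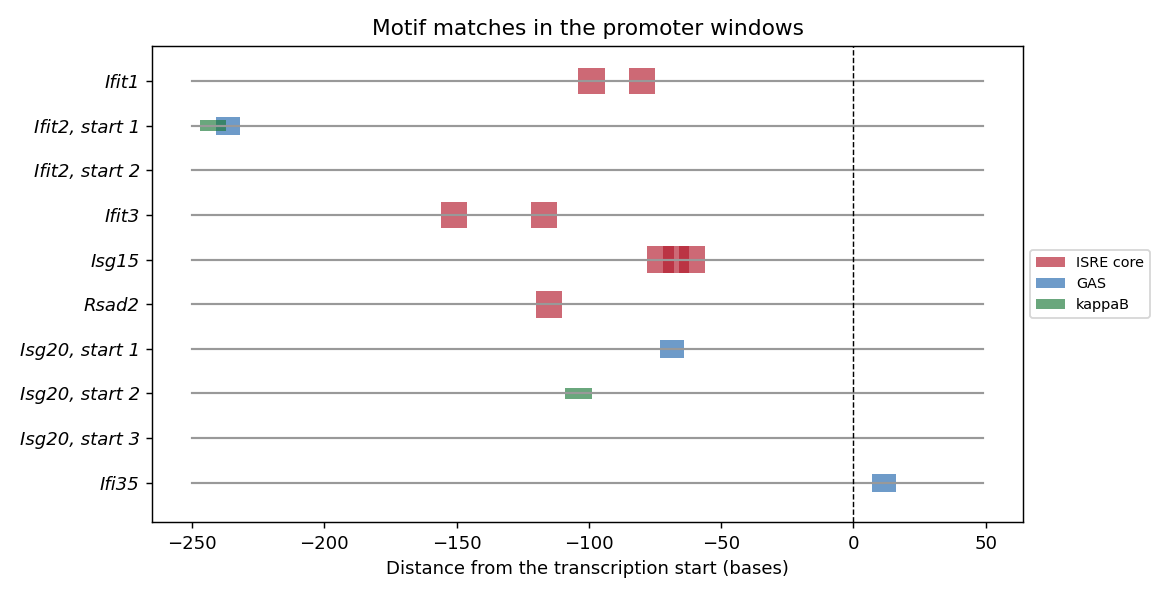
Positions of the motif matches in the 10 promoter windows of the 7 genes, as distance from the transcription start in bases; each line is 1 window, and red, blue and green boxes are ISRE core, GAS core and κB matches. The ISRE core is seen in Ifit1, Ifit3, Isg15 and Rsad2, in every case upstream of the start.

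All values below are probe set signals on the linear MAS5 scale, or ratios of them. For ratios, signals below a floor of 92.5, the 40th percentile of all non-control signals, were raised to that floor. Where 1 of 2 arrays was below the floor, the ratio is a lower bound and is given as "at least". A gene counted as measured if any array compared was above the floor, and as called from a 2-fold difference upward. No signal of one gene is set against that of another, because probe sets differ in brightness.

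The arrays had equal trimmed means of 500.3 and 7115 to 7678 probe sets above the floor. The 3′ to 5′ ratio of the control probe sets lay between 0.757 and 0.815 for Gapdh and between 1.08 and 1.17 for actin. The brightest Xiap probe set had signals of 120.1 and 125.7 in TNF-treated knockout and wild-type cells, and of 180.5 and 239 in unstimulated knockout and wild-type cells. Whether it lies in the part removed by the knockout is unknown, so it does not check the labels. Of 10 fibroblast markers, 9 or 10 were above the floor on each array (summed signal 68735 to 73240). Vim, the exception, had a dim probe set at 42.1 to 94.5. The fibroblast markers Thy1 and S100a4 differed between genotypes, in opposite directions, which the sum does not show. Thy1 was 6.31-fold lower in knockout cells under TNF and 3.63-fold lower without it. S100a4 was 3.38-fold higher in knockout cells under TNF and 3.04-fold higher without it. Of 10 macrophage and leukocyte markers 4 to 6 were above the floor, and Ptprc, which marks all leukocytes, had signals of only 4.5 to 9.2. The summed signal of that list was 3230 in TNF-treated knockout, 2049 in TNF-treated wild-type, 3198 in unstimulated knockout and 2890 in unstimulated wild-type cells. Most of that sum was Cd14, with signals of 2402.4 and 1534.3 in TNF-treated knockout and wild-type cells and of 2186.9 and 1899.7 in unstimulated ones. Csf1r, Cd68 and Laptm5 were also above the floor on all 4 arrays. None of 7 endothelial markers was above the floor on the TNF arrays, while 1 was in unstimulated knockout cells (Kdr, 126.4) and 2 were in unstimulated wild-type cells (Kdr, 188.9, and Pecam1, 103.8). Of 6 epithelial markers 1 was above it on each array. The summed signals of these lists were 184.5 to 423.2 and 378.4 to 722.0. No marker of these lists was listed at 0. In RNA from whole cultures, fewer cells that express a gene and less RNA per cell cannot be told apart.

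The Ifit genes had their highest signals in TNF-treated wild-type cells. Ifit1 had a signal of 232.4 in TNF-treated knockout cells, 2230.3 in TNF-treated wild-type cells, 5.1 in unstimulated knockout cells and 170.4 in unstimulated wild-type cells. Its TNF-treated wild-type signal stood far above the other arrays, and only the unstimulated knockout signal was below the floor. Ifit3 had signals of 122.8 and 1461.2 in TNF-treated knockout and wild-type cells and of 55.2 and 267.6 in unstimulated knockout and wild-type cells. For Ifit3 both knockout signals, TNF included, lay below that of unstimulated wild-type cells. Ifit2 had signals of 237.7 and 471.2 in TNF-treated knockout and wild-type cells and of 150.0 and 213.7 in unstimulated knockout and wild-type cells. It kept the same order of arrays as Ifit1 within a smaller range, with all 4 above the floor.

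Among the genes of the ISG15 system, Isg15 had signals of 417.9 and 1619 in TNF-treated knockout and wild-type cells and of 478.0 and 608.1 in unstimulated knockout and wild-type cells. The TNF-treated wild-type array was again the high one, and the TNF-treated knockout array was the lowest. Usp18 had signals of 43.8 and 157.4 in TNF-treated knockout and wild-type cells and of 19.9 and 58.2 in unstimulated knockout and wild-type cells, so that only TNF-treated wild-type cells were above the floor. The same held more sharply for Rsad2. Its signal was 545.4 in TNF-treated wild-type cells, against 10.0 in TNF-treated knockout cells, 8.0 in unstimulated knockout cells and 9.3 in unstimulated wild-type cells.

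The remaining genes did not follow this order. Ifi35 had signals of 562.9 and 553.2 in TNF-treated knockout and wild-type cells and of 336.1 and 168.0 in unstimulated knockout and wild-type cells. Both TNF arrays were close to each other and above both unstimulated arrays. Isg20 had signals of 247.5 and 134.8 in TNF-treated knockout and wild-type cells and of 201.2 and 97.0 in unstimulated knockout and wild-type cells. For Isg20 both knockout arrays were above both wild-type arrays, the reverse of Ifit3, and unstimulated wild-type cells were barely above the floor. Without replicate arrays it cannot be said which neighbours in these orders differ beyond the spread of repeated cultures.

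**Figure D2:**
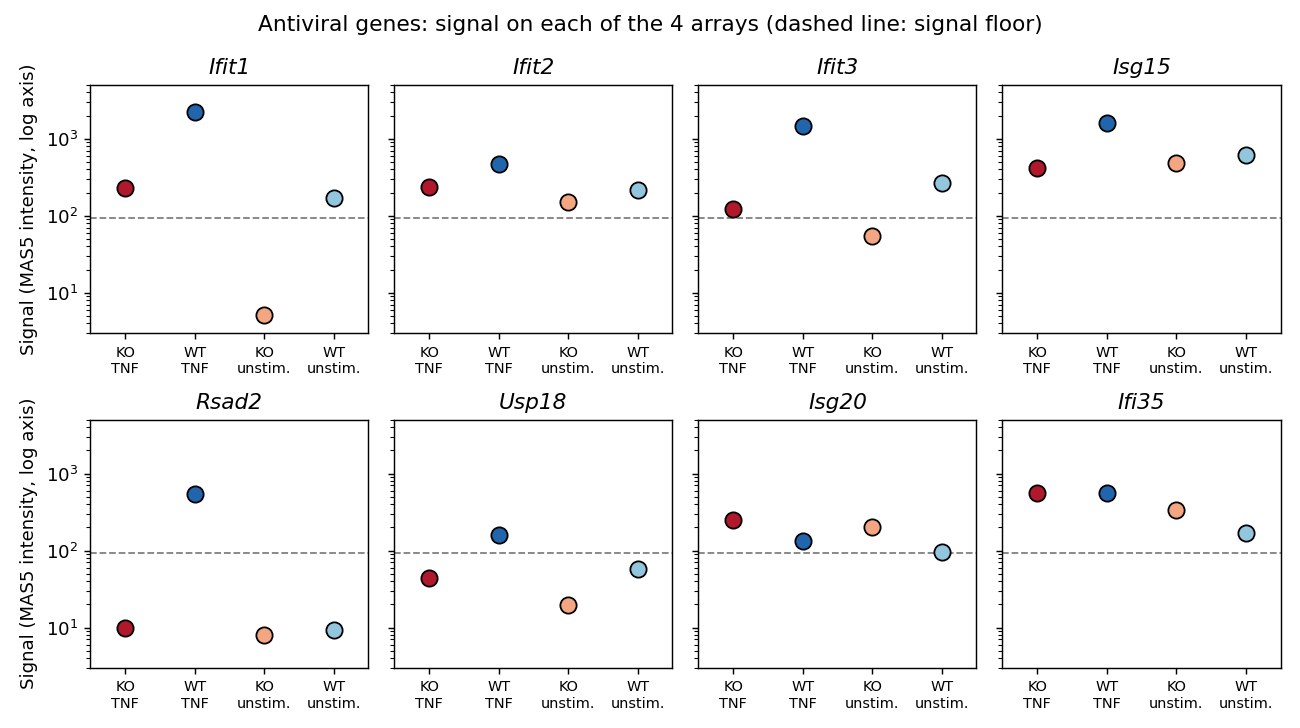
Signal of each of the 8 genes (MAS5 intensity, log axis) on the 4 arrays, 1 point per array, with the floor of 92.5 as a dashed line; KO is Xiap knockout and WT wild-type. Ifit1, Ifit2, Ifit3, Isg15, Rsad2 and Usp18 peak on the TNF-treated wild-type array, while Isg20 is higher on both knockout arrays than on both wild-type arrays.

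The first comparison asked how the genes responded to TNF in Xiap knockout cells. Of 8 genes, 6 were measured and 1 was at least 2-fold higher, against 1.57% of all 7764 measured probe sets, and none lower, against 0.399%. The called gene was Ifit1, at least 2.51-fold higher with TNF in knockout cells. That bound comes from an unstimulated signal far below the floor, and its response may be much larger. Ifi35 was 1.68-fold and Ifit2 1.58-fold higher with TNF, and Isg20 was 1.23-fold higher. Ifit3 was at least 1.33-fold higher, and without a floor it passed 2-fold (log2 change 1.15). Isg15 had a log2 change of -0.19, the only one of the measured genes that was lower with TNF in knockout cells. Rsad2 and Usp18 were below the floor on both knockout arrays. The median log2 change of the 6 genes was 0.54, and that of all measured probe sets was -0.05.

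In wild-type cells, 6 of the 8 genes passed 2-fold upward with TNF, against 2.54% of 7846 measured probe sets, and none was lower, against 2.79%. Ifit1 was 13.1-fold higher, the fifth highest change among the 6947 probe sets above the floor on both wild-type arrays. Ifit3 was 5.46-fold, Ifi35 3.29-fold, Isg15 2.66-fold and Ifit2 2.21-fold higher, and Rsad2 was at least 5.90-fold higher. Below 2-fold were Usp18, at least 1.70-fold higher, and Isg20, 1.39-fold higher. The median log2 change over the 8 genes was 1.57, and over all measured probe sets it was -0.10. With a floor at the 60th percentile (290.7), Usp18 and Isg20 were not measured. At that floor 3 of the remaining genes passed 2-fold, against 2.42% of all measured probe sets.

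The responses differed most plainly for Isg15, which was above the floor on all 4 arrays. Its log2 response was -0.19 in knockout cells and 1.41 in wild-type cells, a difference of -1.61 and the twelfth lowest of 6664 probe sets with all arrays above the floor. For Ifi35 the log2 responses were 0.74 in knockout and 1.72 in wild-type cells (difference -0.98), and for Ifit2 0.66 and 1.14 (difference -0.48). On floored signals the response of 4 of the 8 genes was smaller in the knockout by 2-fold or more, against 1.23% of 8228 measured probe sets, and that of none was larger, against 2.69%. They were Ifit1, Ifit3, Rsad2 and Isg15, and in all but Isg15 an array below the floor leaves the size of the difference open. For Ifit1 even the sign is open: the floored difference was -2.38, and with no floor it was 1.80. No test of the difference of response can be made with 1 array per group, and the comparisons share arrays.

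**Figure D3:**
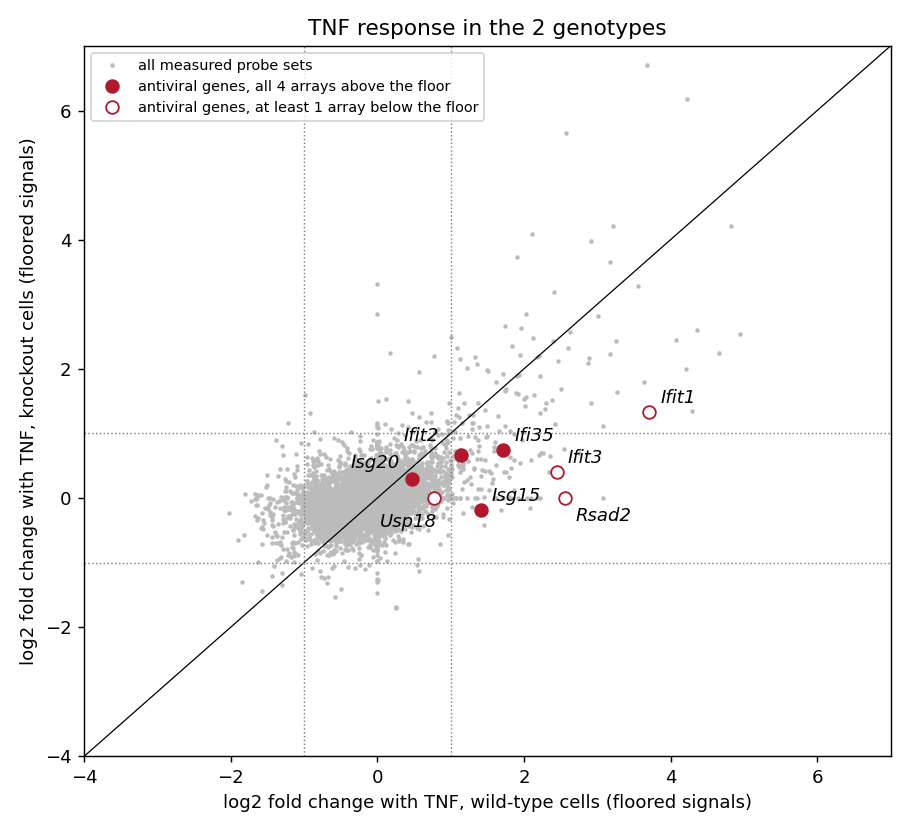
Log2 fold change with TNF in wild-type cells (horizontal) and knockout cells (vertical), on floored signals, for all measured probe sets (grey) and the 8 genes (red; open circles have at least 1 array below the floor). The line marks equal responses and dotted lines mark 2-fold. All 8 genes lie below the line (Ifit1 would lie above it with no floor), with Isg15 at 1.41 in wild-type and -0.19 in knockout cells. Rsad2 and Usp18 were below the floor on both knockout arrays, so the floor sets their knockout change to 0 and places them below the line.

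Under TNF, the levels of the genes themselves were compared between genotypes. Of the 8 genes, 4 were at least 2-fold lower in knockout than in wild-type cells, against 4.97% of 7754 measured probe sets, and none was at least 2-fold higher, against 5.83%. Ifit3 was 11.9-fold lower in knockout cells, the sixth lowest ratio of 6817 probe sets above the floor on both TNF arrays. Ifit1 was 9.60-fold lower, the tenth lowest. Isg15 was 3.87-fold lower, and Rsad2 at least 5.90-fold lower. These ratios need no unstimulated array, so the dim unstimulated signals of Ifit1 and Ifit3 do not enter them.

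Just under the threshold, Ifit2 was 1.98-fold lower in TNF-treated knockout cells, and it passed 2-fold when the arrays were put on equal medians or quantile-normalized. Usp18 was at least 1.70-fold lower. Ifi35 differed by a log2 ratio of 0.03, which turned to -0.17 on equal medians, and Isg20 was 1.84-fold higher. The median log2 ratio was -1.47 over the 8 genes and 0.08 over all measured probe sets. The 4 genes whose windows held the ISRE core had log2 ratios of -3.57 to -1.95, Rsad2 as a bound, and the 3 whose windows held none had ratios of -0.99, 0.03 and 0.88.

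Across the array, other genes with an ISRE core passed 2-fold in both directions between genotypes. Among 170 other measured genes with an ISRE core in a window, 16 were at least 2-fold lower (9.41%) and 12 higher (7.06%) in knockout cells under TNF. Among 4560 genes with a window but no match, 196 were lower (4.30%) and 244 higher (5.35%). For the response to TNF in wild-type cells, 15 of 169 other genes with a match were at least 2-fold higher (8.88%) and none lower, against 104 of 4610 higher (2.26%) and 116 lower (2.52%) without one. For the response in knockout cells, 9 of 166 other genes with a match were at least 2-fold higher (5.42%) and none lower. Among 4582 genes without a match, 58 were higher (1.27%) and 18 lower (0.393%). Between unstimulated genotypes, 15 of 166 other genes with a match were at least 2-fold lower (9.04%) and 12 higher (7.23%) in knockout cells. Among 4725 genes without a match, 191 were lower (4.04%) and 201 higher (4.25%). These shares were not tested.

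Without TNF, 3 of the genes differed by 2-fold or more between the genotypes. Of 6 measured genes, 1 was at least 2-fold lower in unstimulated knockout cells, against 4.58% of 8060 measured probe sets, and 2 were higher, against 4.53%. Ifit3 was at least 2.89-fold lower. Ifit1 was at least 1.84-fold lower, a bound set by its signal of 5.1. Ifit2 was 1.43-fold and Isg15 1.27-fold lower. Isg20 was 2.07-fold and Ifi35 2.001-fold higher in unstimulated knockout cells. Ifi35 stood at the threshold without TNF, while its signals under TNF were close. These calls depended on how dim signals were treated. With 50 added in place of a floor, the log2 ratios of Isg20 and Ifi35 were 0.77 and 0.82, under the threshold. With a floor at the 60th percentile only Isg15 and Ifi35 were measured. Neither passed, against 3.54% of all measured probe sets in each direction. The median log2 ratio of the 6 genes was -0.43, beside -0.02 over all measured probe sets.

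**Figure D4:**
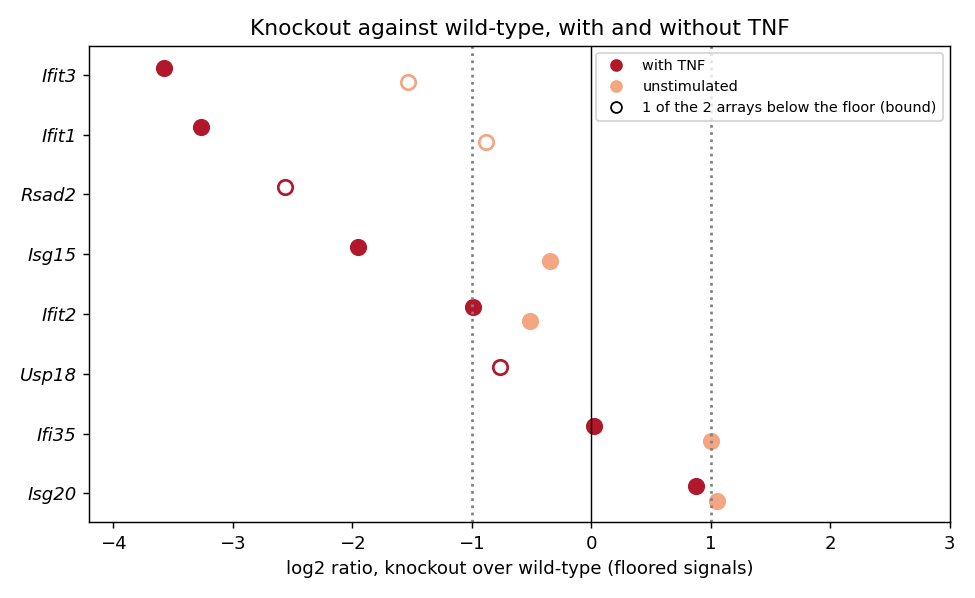
Log2 ratio of knockout over wild-type signal for each of the 8 genes, with TNF (dark red) and unstimulated (light), on floored signals; open circles are bounds and dotted lines mark 2-fold. Ifit3, Ifit1, Rsad2 and Isg15 are furthest to the left under TNF, and Rsad2 and Usp18 have no unstimulated point because both arrays were below the floor.

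An additive model of TNF and genotype was fitted over the 4 arrays with limma across 8228 measured probe sets. It leaves 1 residual degree of freedom, which is the difference of response itself, so a gene with unequal responses gets a large error. For TNF, all 8 estimates were above 0, those of Rsad2 and Usp18 resting on the TNF-treated wild-type array alone. None of the 8 genes passed an adjusted p of 0.05 in this limma fit, where 1.08% of all probe sets rose and 0.0851% fell. An unadjusted p below 0.05 was reached by 4 of the 8 genes and by 1125 of the 8228 probe sets. The largest estimate was that of Ifit1, a log2 effect of 2.52 (SE 0.52, limma adjusted p = 0.103, higher in both pairs of arrays). For genotype, 3 of the 8 genes passed, beside 10.2% of all probe sets that were higher and 9.18% that were lower in knockout cells. Ifit3 fell by 2.55 on the log2 scale (SE 0.46, limma adjusted p = 0.0125) and Ifit1 fell by 2.07 (SE 0.52, limma adjusted p = 0.0377), each lower in both pairs. Isg20 rose by 0.96 (SE 0.20, limma adjusted p = 0.0224) and was higher in both pairs. Isg15 missed the threshold, with an effect of -1.15 (SE 0.35, limma adjusted p = 0.0669). Its adjusted p was under 0.05 in 5 of 9 alternatives and ranged from 3.53e-07 with equal medians to 0.152. These p-values have no replicate cultures behind them, and a genotype effect cannot be told apart from any other difference between the cultures. The 3 genotype calls depended on the processing too: the adjusted p over 9 alternatives reached 0.107 for Ifit3 and 0.106 for Ifit1, and over 8 alternatives 0.0764 for Isg20.

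The rest of the interferon pathway was followed through lists of genes, each gene by its brightest probe set. Of 11 interferon ligand genes, 9 were on the array and 4 were measured (3 without TNF). On floored signals none passed 2-fold between any pair of groups, but some of these ratios were bounds. Ifna4 had a signal of 23.4 in TNF-treated wild-type cells, against 101.0 in TNF-treated knockout and 120.0 in unstimulated wild-type cells. The size of those differences is open. Only for Ifna5, an interferon alpha gene, did the responses on floored signals differ by 2-fold or more. Ifna5 had signals of 208.2 and 136.5 in TNF-treated knockout and wild-type cells and of 163.8 and 243.8 in unstimulated knockout and wild-type cells. Its response was 2.27-fold larger in the knockout, opposite in sign to the called differences among the 8 genes, and 2.53% of 6174 measured genes had one at least 2-fold larger. The interferon alpha genes are close in sequence, so their probe sets may not tell them apart. Ifnb1, the interferon gene that fibroblasts are known for, had signals of 60.9 and 30.7 in TNF-treated knockout and wild-type cells and of 52.6 and 10.7 in unstimulated knockout and wild-type cells. All 4 Ifnb1 signals were below the floor.

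Among receptors and their kinases, 3 of 7 measured genes were at least 2-fold lower in knockout cells under TNF, against 5.01% of 5852 measured genes, and none was higher, against 5.62%. Ifnar2, a chain of the type I interferon receptor, was 3.91-fold lower, with signals of 716.1 and 2801.5 in TNF-treated knockout and wild-type cells and of 221.7 and 492.9 in unstimulated knockout and wild-type cells. Its partner chain Ifnar1 was 2.13-fold lower, and the kinase gene Jak2 2.17-fold lower. With TNF, Ifnar2 was 3.23-fold higher in knockout cells (1.48% of genes were at least 2-fold higher there), and it was 5.68-fold higher in wild-type cells (2.64% of genes). In the additive limma fit Ifnar2 rose with TNF (log2 effect 2.10, SE 0.22, adjusted p = 0.0107), as did 1.08% of all probe sets. In that fit 4 of the 7 genes were lower in knockout cells (Ifnar1, Ifnar2, Ifngr2 and Jak1) and 0 higher. Of all probe sets, 9.18% were lower and 10.2% higher.

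Of 6 measured STAT and IRF genes, 1 was at least 2-fold lower in knockout cells under TNF, against 5.01% of all measured genes, and none was higher, against 5.62%. This was Irf9, which encodes a DNA-binding factor that acts at the ISRE, with signals of 386.4 and 982.1 in TNF-treated knockout and wild-type cells and of 392.7 and 578.6 in unstimulated knockout and wild-type cells. The Irf9 signal of TNF-treated knockout cells stayed at the unstimulated knockout level, the pattern seen for Isg15. Irf1, by contrast, had signals of 2747.6 and 2566.0 in TNF-treated knockout and wild-type cells and of 301.9 and 482.4 in unstimulated knockout and wild-type cells. Irf1 rose in the additive limma fit (log2 effect 2.80, SE 0.20, adjusted p = 0.00244) and did not differ 2-fold between genotypes.

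Shorter lists of the pathway held further genes past 2-fold under TNF, all lower in knockout cells, where 5.01% of all measured genes were lower and 5.62% higher. Among 4 measured negative regulators, 2 passed: Socs1 was 2.34-fold and Socs3 2.04-fold lower in knockout cells under TNF. Of 3 measured RNA sensors and adaptors 1 passed, and Ifih1, the sensor of long double-stranded RNA, was 2.79-fold lower. Of the 4 measured ISG15 conjugation enzymes 2 passed: Trim25, a ubiquitin and ISG15 ligase, was 4.82-fold lower and Ube2l6, the ISG15-conjugating enzyme, at least 2.11-fold lower. Uba7, the ISG15-activating enzyme, and Ube2e1 had log2 ratios of -0.28 and 0.43. Without TNF, Trim25 was already 2.29-fold lower in knockout cells and Ifih1 at least 2.12-fold lower. Each was 1 of 3 measured genes of its list, and 4.70% of all measured genes were lower. Socs1 was 1.62-fold lower and Socs3 1.19-fold higher in unstimulated knockout cells. Ube2l6 was below the floor on both unstimulated arrays.

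In the larger list of other interferon-stimulated genes, 1 of 16 measured genes was at least 2-fold lower in knockout cells under TNF and none higher (median log2 ratio -0.32). With 5.01% of all measured genes lower, a list of this size would hold about as many at the array-wide share. That gene was the immunity-related GTPase gene Iigp1, 2.65-fold lower. The guanylate-binding GTPase gene Gbp2 had signals of 1720.1 and 2626.4 in TNF-treated knockout and wild-type cells, against 13.3 and 68.5 in unstimulated knockout and wild-type cells. It was at least 18.6-fold higher with TNF in knockout cells and at least 28.4-fold in wild-type cells. Ifi47, another GTPase gene, was at least 9.78-fold and at least 11.8-fold higher in the same comparisons. Gbp2 and Ifi47 rose in the additive limma fit (adjusted p = 0.00119 and 0.00228). Without TNF, 1 of 11 measured genes of this list passed 2-fold between genotypes, Irgm1, opposite in direction to Iigp1 under TNF. Irgm1 had signals of 773.1 and 605.9 in TNF-treated knockout and wild-type cells and of 516.1 and 141.4 in unstimulated ones. The unstimulated knockout signal was 3.65-fold the wild-type one, and 4.55% of all measured genes passed upward there. With TNF, Irgm1 rose 1.5-fold in knockout and 4.3-fold in wild-type cells (difference of log2 response -1.52). Mx1, Mx2 and Oas1g, classical interferon-stimulated genes, were below the floor on all 4 arrays, with no signal above 58.4.

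**Figure D5:**
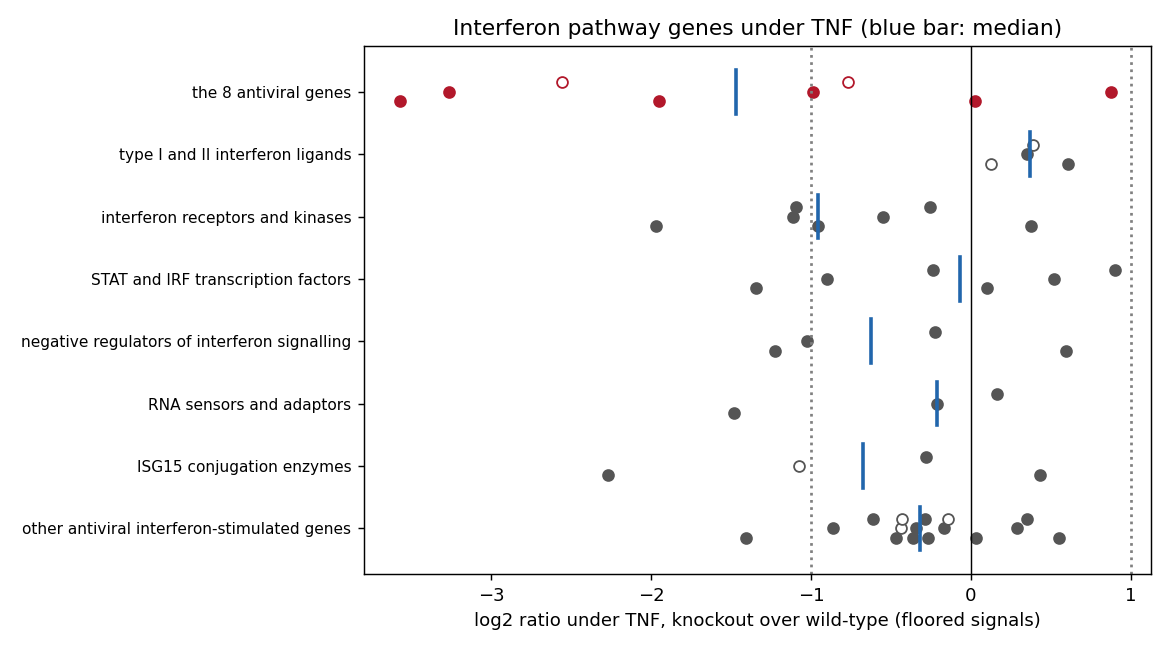
Log2 ratio of knockout over wild-type signal under TNF for the 8 genes (red) and each measured gene of 7 pathway lists (grey), on floored signals, with the median of each list as a blue bar, bounds as open circles and dotted lines at 2-fold. The 8 genes have a median of -1.47 and span -3.57 to 0.88, and the other interferon-stimulated genes have a median of -0.32.

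The genes whose course over the 4 arrays was closest to that of each of the 4 ISRE-bearing genes were found by the Euclidean distance between floored log2 signals centred on their means, among 6166 other genes. Closest to Ifit1 was the chemokine gene Cxcl10 (distance 0.73), followed by Cebpd, Flt1, Slfn2 and Ifnar2. Cxcl10 had signals of 235.2 and 1810.5 in TNF-treated knockout and wild-type cells and of 4.1 and 51.3 in unstimulated knockout and wild-type cells. Closest to Ifit3 was Fst (0.53), an activin-binding protein gene, followed by Ifi204, Gfpt2, Slfn2 and Trim25. For Isg15 the nearest were Mfhas1 (0.16), Nr4a1, Rgs16, Rab20 and Ifrd1, all of which had their highest signal in TNF-treated wild-type cells. For Rsad2 they were the cytokine gene Il6 (0.29), Fos, Has2, Ptgs2 and Egr1. Il6 had signals of 33.7 and 431.2 in TNF-treated knockout and wild-type cells and of 3.1 and 5.8 in unstimulated knockout and wild-type cells, so that, as for Rsad2, the TNF-treated wild-type array alone was above the floor. With 4 arrays and many signals below the floor, such likeness is a description of these cultures.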

How the data were processed

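Probe set signals of 4 arrays (1 per group, groups from the sample titles) were taken from the deposited table. They are intensities on a linear scale, which per the submitters' processing notes came from MAS5; the sources used here name no version, background setting or detection call. The equal trimmed means (2% left out at each end) show that the deposited intensities had been scaled. Symbols came from the platform annotation, checked by Entrez identifier against RefSeq (GRCm38.p6), and the 66 control probe sets were left out. Signals were raised to a floor (40th percentile, 92.5), which understates changes of dim genes, and converted to log2. The additive model (TNF and genotype) was fitted with limma 3.58.1 in R 4.3.3 (eBayes with intensity trend, 2-sided, Benjamini-Hochberg adjustment over 8228 probe sets, 5.37 prior degrees of freedom). It was tried on simulated data with equal TNF effects in both genotypes, so that trial does not cover genes with unequal responses. Named genes are the 8 genes, Xiap, up to 4 genes per list and comparison past 2-fold (or the 2 largest), and the 5 nearest patterns of 4 genes. Named in addition, after their values were seen, were Ifnb1, Ifna4, Jak1, Ifngr2, Uba7, Ube2e1, Mx1, Mx2 and Oas1g. The same holds for the markers Vim, Thy1, S100a4, Ptprc, Cd14, Csf1r, Cd68, Laptm5, Kdr and Pecam1. Members and lists were chosen with earlier results of these data known. Alternatives were other floors, an added 50 in place of a floor, other scalings, other ways to represent a gene and no intensity trend. The number of arrays limits the precision.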

Additional observations from a re-analysis of the deposited data

Results flagged for a closer look

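Isg15 was singled out because its signal was higher with TNF in wild-type cells and lower with TNF, though by only 1.14-fold, in knockout cells. Its signal was 417.9 with TNF and 478.0 without in knockout cells, and 1619 with TNF and 608.1 without in wild-type cells. The log2 response in the knockout minus that in wild-type was -1.61. The difference was not tested, because each group is 1 array.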

How the results depend on the processing

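Between genotypes under TNF, the number of genes at least 2-fold lower in knockout cells was 3 to 5 over 8 alternatives, beside 4 as reported. Of all measured probe sets, 4.97% were lower as reported, 4.27% with a floor at the 60th percentile and 7.31% with equal medians. Ifit1, Ifit3 and Isg15 passed in all 8, while Rsad2 was under 2-fold with a floor at the 60th percentile. With no floor, 2 genes passed 2-fold upward with TNF in knockout cells (2.15% of all measured probe sets), and 2 were lower in unstimulated knockout cells (6.61%). In that setting 1 gene, Ifit1, had a response 2-fold larger in the knockout (6.89%), its difference of response turning to 1.80. With a floor at the 20th percentile, 3 genes were higher with TNF in knockout cells (2.73%) and 3 were lower in unstimulated knockout cells (7.14%). With a floor at the 60th percentile 0 genes were higher with TNF in knockout cells (1.39%) and 3 were higher in wild-type cells (2.42%). At that floor 0 were higher (3.54%) and 0 lower (3.54%) in unstimulated knockout cells, and Usp18 and Isg20 were below it on every array. With 50 added in place of a floor, 0 were higher (4.19%) and 2 lower (4.52%) in unstimulated knockout cells. In the additive limma fit the TNF calls among the 8 genes, 0 as reported, beside 1.17% of all probe sets, numbered 2 with no floor (1.97%), 1 with the 20th (0.991%), 1 with the 60th percentile (1.90%), 3 with 50 added (3.05%), 1 with quantile normalization (2.16%) and 6 with equal medians (6.02%). The genotype calls, 3 as reported beside 19.4% of all probe sets, numbered 1 with the 60th percentile (26.0%), 5 with 50 added (24.3%), 5 with quantile normalization (23.3%), 6 with equal medians (22.7%), and 1 when the probe sets of each gene were averaged (14.4% of genes). With equal medians the prior degrees of freedom became infinite, so that fit used only the spread pooled over genes. Equal medians shifted the median log2 change of all probe sets by 0.28 for TNF in wild-type cells and by -0.20 for knockout against wild-type under TNF. Other causes of these changes were not tested. Dim signals limit Rsad2, Usp18, Ifit1 and Ifit3 most. No paired analysis was possible because each group is 1 array with no replicate numbers in the labels.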
